A study of Homo sapiens with 12 samples.

Results

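Transforming growth factor beta (TGF-beta) signalling was followed through 10 genes: the ligand genes TGFB1, TGFB2 and TGFB3, the activin A subunit gene INHBA, the latency protein gene LTBP1, the receptor genes TGFBR1 and TGFBR2, the signal transducer SMAD3, the inhibitor SMAD7 and the secreted target TGFBI. They were chosen by symbol from a table of 62754 Ensembl gene identifiers, each symbol matched 1 identifier, and all 10 passed the filter on low counts that left 17115 genes for testing. The cells were PC9, a lung adenocarcinoma line that carries an activating EGFR mutation, and erlotinib blocks the EGFR kinase. The study compared cells that survive the drug with untreated cells, and a knockout line of TDP1, which encodes an enzyme that repairs blocked DNA ends, with wild-type cells. Each of 4 groups had 3 libraries of polyadenylated RNA. Untreated TDP1 WT cells, without drug, are called WT here. Drug-tolerant cells (DTC) were TDP1 WT after 7 days in 1 µM erlotinib, and drug-tolerant expanded cells (DTEC) were TDP1 WT after 28 days in 1 µM erlotinib. WT was the untreated comparator at both times. An effect of the drug, of days in culture and of selection of survivors therefore cannot be told apart. The TDP1 knockout cells (KO) were 1 line, KO2, without drug, so an effect of the knockout and a trait of that line cannot be told apart. All groups came from 1 subclonal PC9 line, and the cultures of a condition were split from a single flask and then kept apart. The p-values therefore measure the spread between cultures of that line only.

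TGF-beta ligands are secreted in a latent form, held by their own propeptide and tied to the matrix by latent TGF-beta binding proteins such as LTBP1, and are freed by integrins, proteases or thrombospondin. Free TGF-beta binds TGFBR2, which recruits and phosphorylates TGFBR1, and TGFBR1 phosphorylates SMAD2 and SMAD3. Activins, dimers of inhibin beta subunits such as the product of INHBA, reach the same SMADs through other receptors. The SMADs enter the nucleus with SMAD4 and switch on targets that include TGFBI and SMAD7, and SMAD7 in turn blocks the receptors. In epithelial cells the pathway is known for growth arrest and for the loss of epithelial traits.

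The libraries held 25572691 to 38373679 estimated counts. Levels are given in CPM, the count relative to the TMM-scaled library total, on which scale the counting floor of 3 counts lay at 0.0824 to 0.115. All 6 epithelial markers examined were above 3 counts in every group, with a summed level of 10790 to 11390 CPM in WT and 6288 to 7270 CPM in DTC, and of 9272 to 12145 CPM in DTEC and 11474 to 12309 CPM for KO. By the edgeR quasi-likelihood test, KRT18 (40.4% of WT), KRT8 (46.5%), EPCAM (57.2%) and KRT19 (79.5%) were lower in DTC. In that test CDH1 (285 CPM in WT, 297 in DTC, adjusted p = 0.766) and KRT7 (1964 and 2069 CPM, adjusted p = 0.579) did not pass. The 6 fibroblast markers summed to no more than 2.65 CPM in any library, with DPT at 0 throughout. The 5 immune markers summed to 25.9 to 54.7 CPM, nearly all of it CD68, with PTPRC at 0.147 CPM or less. The 5 endothelial markers summed to 58.5 to 61.4 CPM for WT, 42.3 to 50.2 CPM for DTC, 122 to 142 CPM for DTEC and 75.7 to 77.2 CPM for KO, nearly all of it PECAM1 and CDH5. Between WT and DTC, PECAM1 fell to 27.3% of its WT mean, or 8.76 CPM (adjusted p = 4.43e-09), VWF rose from 0.122 to 1.57 CPM (adjusted p = 2.88e-05), and CDH5, at 27.7 and 34.9 CPM, did not pass (adjusted p = 0.11). KDR (0 and 0.584 CPM) and TEK (0.0208 and 0.162 CPM) were not tested. What part these marker levels had in the results was not tested. TDP1 stood at 28.1, 25.1 and 25.7 CPM in WT and at 10.1, 11.3 and 11.0 CPM in KO, which is 41.0% of WT (log2 fold change -1.29, SE 0.110, edgeR quasi-likelihood test with Benjamini-Hochberg adjustment, adjusted p = 1.3e-05). A lower TDP1 level was not particular to KO. By the same test DTC, at 15.7, 12.6 and 13.5 CPM, was at 53.0% of WT (log2 -0.92, SE 0.108, adjusted p = 3.56e-06). DTEC did not pass (log2 0.02, adjusted p = 0.905). The first DTC library and the first WT library lay farthest from the other libraries of their groups, so values without them are given where they matter. In DTEC the third library lay farthest from the others. Its chi-square of counts per degree of freedom was 49.07 and 21.24, against 25.54 and 17.76 for the first WT library.

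The 3 genes with the widest range of group means were INHBA (4.30 on the log2 scale), TGFB3 (3.10) and TGFB2 (1.59), and their promoter windows are shown because those are the genes whose RNA moved most. Each window holds 250 bases before and 50 bases after a RefSeq start site on GRCh38.p14, read along the strand of the gene. Capitals mark every match, on either strand, to the SMAD box CAGACA, the AP-1 motif TGACTCA or TGAGTCA, the TEAD motif GGAATG and the TATA box TATAAA. RefSeq listed 1 start for INHBA, 1 for TGFB2 and 2 for TGFB3, of which the one with a match is printed. None of the printed windows spans the start of the gene coordinates given below (41705834 for INHBA, 218346235 for TGFB2 and 75982991 for TGFB3). The TGFB3 window left out, 75982962 to 75983261, does span it. Which start these cells use was not tested.
INHBA, chr7:41703041-41703340, minus strand: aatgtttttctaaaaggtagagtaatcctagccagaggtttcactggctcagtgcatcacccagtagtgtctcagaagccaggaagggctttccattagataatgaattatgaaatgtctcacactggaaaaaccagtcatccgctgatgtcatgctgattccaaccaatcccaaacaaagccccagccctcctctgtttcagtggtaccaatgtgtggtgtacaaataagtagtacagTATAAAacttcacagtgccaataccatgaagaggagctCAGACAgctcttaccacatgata
TGFB2, chr1:218345086-218345385, plus strand: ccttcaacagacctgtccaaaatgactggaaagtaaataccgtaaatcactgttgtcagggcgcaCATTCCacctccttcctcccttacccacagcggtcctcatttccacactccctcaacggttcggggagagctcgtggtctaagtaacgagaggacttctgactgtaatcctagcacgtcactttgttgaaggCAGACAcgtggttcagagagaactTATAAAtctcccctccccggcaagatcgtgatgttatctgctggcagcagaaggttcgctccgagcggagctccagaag
TGFB3, chr14:75981946-75982245, minus strand: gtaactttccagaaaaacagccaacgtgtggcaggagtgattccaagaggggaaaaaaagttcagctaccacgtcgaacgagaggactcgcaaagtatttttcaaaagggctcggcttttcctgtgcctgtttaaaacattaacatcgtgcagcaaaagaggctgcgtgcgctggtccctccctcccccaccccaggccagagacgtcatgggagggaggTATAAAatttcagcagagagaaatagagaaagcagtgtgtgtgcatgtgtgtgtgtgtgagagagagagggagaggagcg
The TATA box began 11 bases before the start in INHBA, 29 before in TGFB2 and 30 before in the printed TGFB3 window. That TGFB3 window was printed for this match, its only one, and the other TGFB3 window held none of the capitalised motifs. INHBA had a SMAD box that began 28 bases after the start, and TGFB2 had one that began 53 bases before it. TGFB2 also had a TEAD motif, on the opposite strand, 185 bases before the start.

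All 10 genes were matched in RefSeq, with 27 windows among them. The TATA box was found in 4 of the 27 windows (14.8%), each of another gene, and in 11.5% of all 35116 windows. The SMAD box was in 7 of the 27 windows (25.9%), belonging to 5 genes, and in 16.9% of all windows. The AP-1 motif was in 2 of the 27 (7.41%) and in 4.95% of all windows, and the TEAD motif in 2 (7.41%) and in 14.0% of all windows. The GC box GGGCGG, which is not capitalised above, was in 8 of the 27 (29.6%) and in 45.0% of all windows. Windows of 1 gene can overlap, so these shares are a description. A match describes the letters of the window, and binding was not measured.

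After 7 days of erlotinib, 6 of the 10 genes rose (INHBA, TGFB3, TGFB2, TGFBR1, TGFBR2 and TGFBI) and 1 fell (SMAD3), while TGFB1, LTBP1 and SMAD7 did not pass the test. A gene passed at an adjusted p under 0.05 in edgeR's quasi-likelihood test with Benjamini-Hochberg adjustment over the 17115 genes. Of all genes tested, 34.0% rose and 33.3% fell (67.3% in either direction), so 7 of 10 is close to that background. The median log2 fold change of the 10 genes was 0.39, and that of all genes was 0.06. After 28 days, INHBA rose, TGFBI and SMAD7 fell and 7 genes did not pass, with a median of 0.01 against 0.02 for all genes, of which 26.0% rose and 26.3% fell (52.3% in either direction). From DTC to DTEC, INHBA, TGFB3, TGFB2, TGFBR1, TGFBI and SMAD7 were lower at 28 days and SMAD3 was higher. The median was -0.68 against -0.01 for all genes, of which 28.8% were higher and 26.6% lower (55.4% in either direction). In KO, INHBA fell and the other 9 genes did not pass, with a median of 0.12 against -0.01, where 4.31% of all genes passed (2.76% higher and 1.55% lower). The comparisons with WT share its 3 libraries, so their values are set side by side and not correlated.

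**Figure D1:**
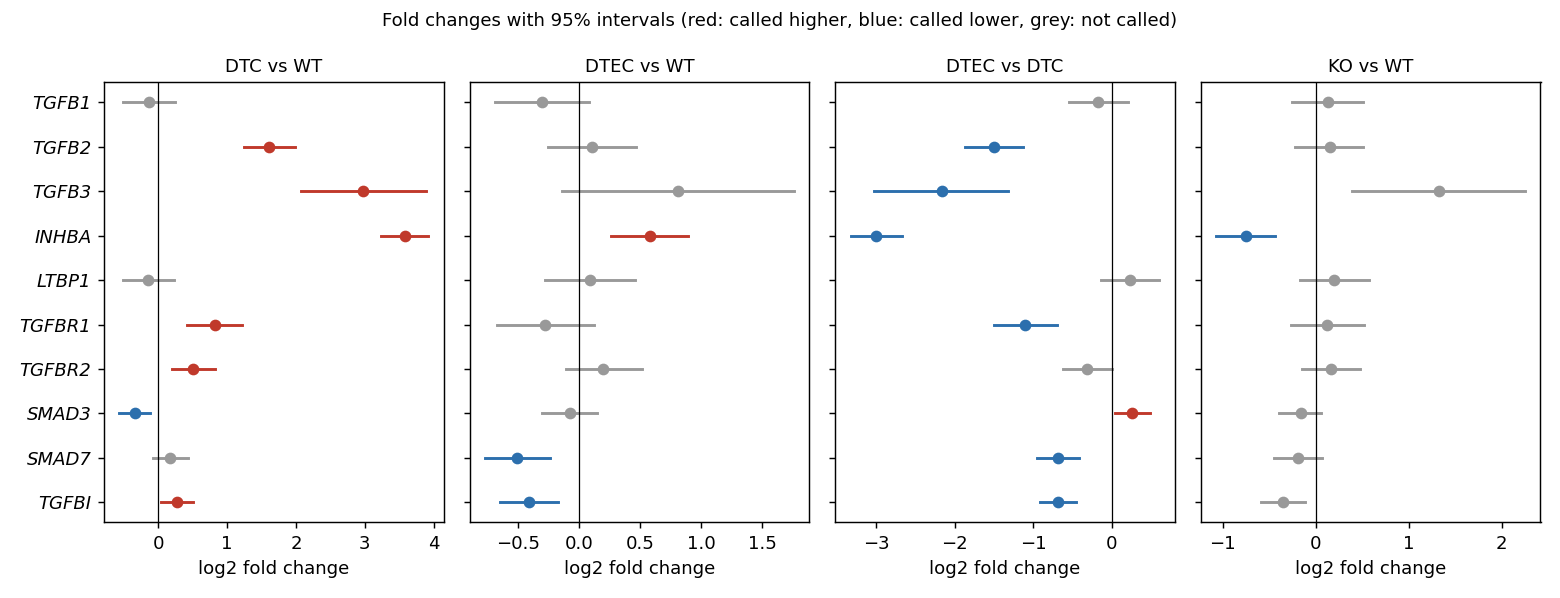
Log2 fold change of each gene (horizontal axis, with its own scale in each panel) in the 4 comparisons, as points with 95% intervals from edgeR, coloured where the gene passed the test. INHBA and TGFB3 lie farthest to the right in DTC against WT (3.58 and 2.98), and the same genes lie farthest to the left in DTEC against DTC (-3.00 and -2.17).

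Scaling moved all genes together. With library totals alone in place of TMM scaling, which sets aside genes of extreme change, the median of all genes shifted by 0.35 on the log2 scale in DTC and by 0.17 in DTEC, both against WT, and by -0.19 between DTEC and DTC. The share of called genes that were higher was then 68.4% in place of 50.5%, 63.7% in place of 49.7% and 37.4% in place of 51.9%. In KO the shift was 0.07 and the share 78.8% in place of 64.1%. The upper quartile gave shifts of 0.29, 0.11, -0.17 and 0.02, with 65.0%, 59.1%, 38.7% and 69.3% of called genes higher. Fold changes are therefore relative to the typical gene.

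INHBA (ENSG00000122641, chromosome 7, 41667168 to 41705834, minus strand, GRCh38) encodes the subunit that pairs with itself to form activin A. Its level was 25.6, 24.4 and 25.2 CPM in the 3 WT libraries and 377, 249 and 272 CPM in the 3 DTC libraries. DTEC libraries held 42.6, 37.5 and 31.9 CPM, and KO libraries 15.4, 14.4 and 14.8 CPM. The groups did not overlap: every DTC library was above every DTEC library, every DTEC library above every WT library, and every KO library below them. INHBA rose 12-fold at 7 days (log2 3.58, SE 0.157, adjusted p = 2.79e-10), which placed it at rank 762 of the 17115 genes by fold change. Leaving out the first DTC library, the highest of the 12, gave a log2 fold change of 3.41. At 28 days INHBA was 1.49-fold above WT (log2 0.58, SE 0.145, adjusted p = 0.00414) and at 12.5% of the DTC level (log2 -3.00, SE 0.152, adjusted p = 2.33e-09). These 3 calls were kept in all 14 other ways of processing the data.

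In KO, INHBA was at 59.3% of WT (log2 -0.75, 95% interval -1.07 to -0.44, SE 0.148, adjusted p = 0.0103). That call was lost in 4 of the 14 other ways of processing, namely without WT library 1 (adjusted p = 0.0559) or 3 (0.0503) and without KO library 2 (0.061) or 3 (0.0553), while the log2 fold change stayed between -0.758 and -0.684. The antisense gene INHBA-AS1 had at most 3 counts in any library.

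INHBB encodes another beta subunit, which pairs with itself to form activin B. It was at 85.8, 101 and 94.9 CPM in WT and at 113, 101 and 104 CPM in DTC, and did not pass the test (log2 0.17, adjusted p = 0.099). Per kilobase of exon, INHBA was 9.37% ± 0.913 (SD, n = 3) of the sum of INHBA and INHBB in WT. The share was 51.8% ± 3.99 in DTC, 10.3% ± 1.3 in DTEC and 4.15% ± 0.165 in KO. The DTC and KO shares did not overlap with WT (two-sided exact permutation p = 0.1 for each, the smallest that 3 libraries against 3 allow), and the DTEC shares did (exact permutation p = 0.5). Such a share is computed within a library and does not depend on how libraries are scaled.

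TGFB2 (ENSG00000092969, chromosome 1, 218346235 to 218444619, plus strand) encodes the TGF-beta isoform with the highest mean RNA of the 3 in every group, per kilobase of merged annotated exons. Its level was 69.5, 68.2 and 69.5 CPM in WT and 262, 187 and 184 CPM in DTC. DTEC libraries held 91.8, 77.4 and 54.5 CPM and KO libraries 81.6, 76.0 and 71.7 CPM. The DTC libraries were the highest 3 of the 12, and the DTEC libraries lay on both sides of WT. TGFB2 rose 3.06-fold at 7 days (log2 1.61, SE 0.172, adjusted p = 1.43e-06) and was at 35.3% of the DTC level at 28 days (log2 -1.50, SE 0.172, adjusted p = 6.04e-06). Without the first DTC library the rise was 1.46 on the log2 scale. Against WT, the DTEC difference was 0.11 (95% interval -0.25 to 0.47, adjusted p = 0.605) and the KO difference 0.15 (-0.22 to 0.51, adjusted p = 0.723). Only 3 of the 12 deposited TGFB2 values were whole numbers, against 12 of 12 for each of the other 9 genes, and TGFB2-OT1 is annotated within TGFB2 on the same strand, so that a read can fit both. With both summed, the means were 70.0 CPM for WT, 212 for DTC, 77.4 for DTEC and 77.0 for KO.

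TGFB3 (ENSG00000119699, chromosome 14, 75958099 to 75982991, minus strand) encodes the third TGF-beta isoform and was the least abundant of the 10 genes in every group. Its 3 WT libraries held 7, 33 and 12 counts, or 0.209, 1.11 and 0.346 CPM. DTC libraries held 127, 122 and 174 counts, or 4.29, 3.59 and 5.10 CPM, all above every other library. DTEC stood at 0.913, 0.840 and 1.10 CPM and KO at 1.61, 1.42 and 1.08 CPM, and both groups overlapped with the second WT library. TGFB3 rose 7.90-fold at 7 days (log2 2.98, SE 0.422, adjusted p = 2.22e-05) and was at 22.1% of the DTC level at 28 days (log2 -2.17, SE 0.397, adjusted p = 0.000361). Without the second WT library the rise was 3.96 on the log2 scale.

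The TGFB3 difference from WT was 0.81 in DTEC (95% interval -0.14 to 1.76, adjusted p = 0.142) and 1.32 in KO (0.39 to 2.25, adjusted p = 0.116). Without the second WT library these were 1.78 (adjusted p = 0.00143) and 2.30 (adjusted p = 0.00453), and both then passed. The KO difference also passed with no filter on low counts (adjusted p = 0.00459) and with DESeq2 (adjusted p = 0.0426). TGFB3 overlaps IFT43 on the opposite strand, and IFT43 also rose at 7 days (log2 0.77, SE 0.194, adjusted p = 0.0029). IFT43 held 20.5, 19.1 and 19.0 CPM in WT, 20.7, 43.8 and 35.6 in DTC and 30.7, 30.1 and 35.0 in DTEC. From DTC to DTEC, where TGFB3 fell, IFT43 did not pass (log2 -0.06, edgeR adjusted p = 0.795). All 12 deposited TGFB3 values were whole numbers. The library kit keeps the strand, but the strand setting of the counting is not given in the sources used here. Whether the 2 genes shared reads was not tested.

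TGFB1 (ENSG00000105329, chromosome 19, 41301587 to 41353911, minus strand), the ligand gene for which the family is named, passed in none of the 4 comparisons. The WT libraries held 26.8, 41.0 and 35.4 CPM, the DTC libraries 23.5, 35.5 and 35.0, the DTEC libraries 25.9, 24.9 and 32.7 and the KO libraries 35.7, 41.7 and 35.3. Every pair of groups overlapped except DTEC and KO, where all DTEC libraries were below all KO libraries, and the first library was the lowest in WT and in DTC. The log2 difference from WT was -0.13 in DTC (95% interval -0.51 to 0.25, adjusted p = 0.526), -0.30 in DTEC (-0.69 to 0.08, adjusted p = 0.17) and 0.13 in KO (-0.26 to 0.51, adjusted p = 0.782). The DTC difference had the opposite sign with library totals alone (0.221). With the first WT and DTC libraries both left out, the DTEC difference was -0.431 and passed (adjusted p = 0.00967). TGFB1 overlaps HNRNPUL1, CCDC97 and TMEM91 on the other strand, with the same limit on strand as above.

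Within the 3 TGF-beta ligands, TGFB2 took 55.8% ± 5.62 (SD, n = 3) of the RNA per length in WT and 79.0% ± 6.27 in DTC. TGFB1 took 43.7% ± 5.30 in WT and 19.3% ± 6.05 in DTC, and TGFB3 took 0.450% ± 0.364 and 1.73% ± 0.393. The TGFB2 and TGFB1 shares were close in the second WT library (50.7% and 48.5%) and in the third DTEC library (50.6% and 48.3%). Which of them leads there can depend on the exon length used. The 3 DTC libraries did not overlap with WT for any of the 3 shares (exact permutation p = 0.1, the smallest possible). TGFB2 had 61.6% ± 9.62 in DTEC (exact permutation p = 0.5) and 55.6% ± 2.71 in KO (exact permutation p = 1.0).

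**Figure D2:**
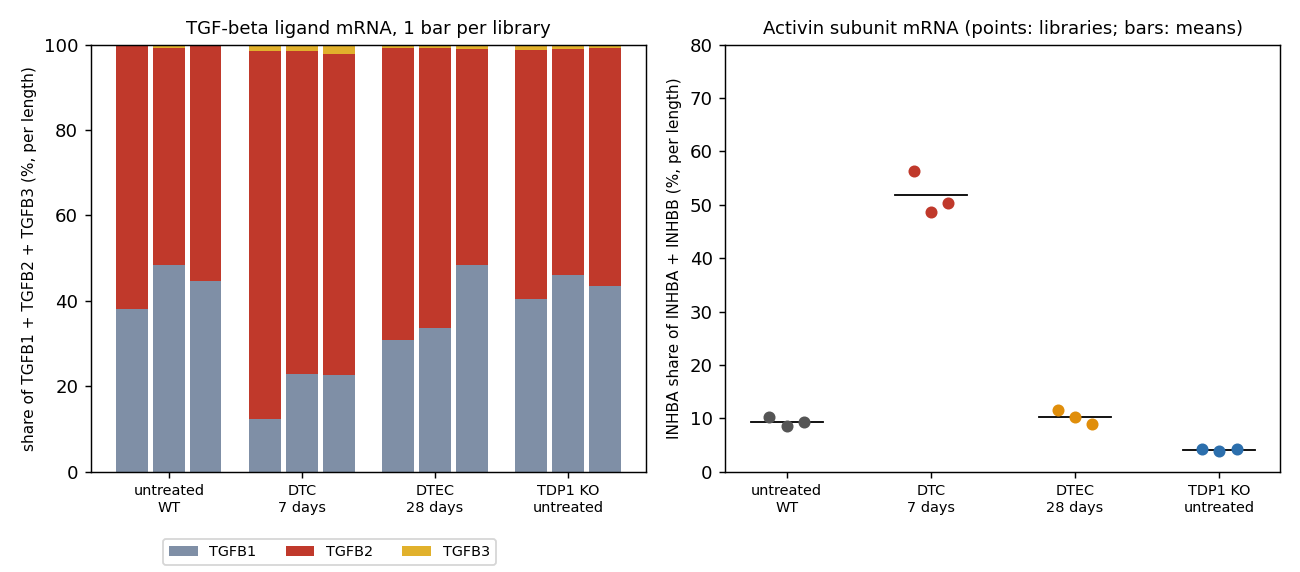
Left, the share of TGFB1, TGFB2 and TGFB3 in the RNA of the 3 ligands (percent, per kilobase of exon), 1 bar for each library. Right, the share of INHBA in the RNA of INHBA and INHBB (percent, per kilobase of exon), with points for libraries and bars for group means. TGFB2 fills 75.1% to 86.2% of each DTC bar, and the INHBA share is 48.7% to 56.3% in DTC and at most 11.6% in every other library.

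LTBP1 (ENSG00000049323, chromosome 2, 32946972 to 33399509, plus strand), which ties latent TGF-beta to the matrix, passed in none of the 4 comparisons. The WT libraries held 51.2, 46.1 and 46.7 CPM and the DTC libraries 58.2, 33.4 and 38.9 CPM. The DTEC libraries held 60.5, 50.5 and 42.3 CPM and the KO libraries 55.6, 54.0 and 56.0 CPM. The first DTC library was above all WT libraries and the other two were below them. The log2 difference from WT was -0.14 in DTC (95% interval -0.51 to 0.23, adjusted p = 0.483), 0.09 in DTEC (-0.28 to 0.46, adjusted p = 0.68) and 0.20 in KO (-0.17 to 0.57, adjusted p = 0.614). All KO libraries were above all WT libraries. Of the 14 other ways of processing, 13 kept the KO outcome, and the KO difference passed in the remaining way. Without the first DTC library the DTC difference was -0.372 and passed (adjusted p = 0.0133), without the second it was 0.078, and with library totals alone it was 0.213. The DTEC level was then also above DTC without the first DTC library (log2 0.48, adjusted p = 0.00319), where all libraries gave 0.23 (adjusted p = 0.268).

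TGFBR1 (ENSG00000106799, chromosome 9, 99104038 to 99154192, plus strand), the signalling receptor kinase that phosphorylates SMAD2 and SMAD3, was at 109, 94.2 and 99.0 CPM in WT and 240, 142 and 151 CPM in DTC. DTEC libraries held 100, 83.6 and 65.8 CPM and KO libraries 118, 104 and 107 CPM. The DTC libraries were above all others, with the first far above the other two. TGFBR1 rose 1.77-fold at 7 days (log2 0.82, SE 0.185, adjusted p = 0.00134), or 0.581 on the log2 scale without the first DTC library (adjusted p = 0.000953). It was at 46.7% of the DTC level at 28 days (log2 -1.10, SE 0.186, adjusted p = 0.000218). Against WT the log2 difference was -0.28 in DTEC (95% interval -0.67 to 0.12, adjusted p = 0.226) and 0.12 in KO (-0.27 to 0.52, adjusted p = 0.797).

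TGFBR2 (ENSG00000163513, chromosome 3, 30606502 to 30694142, plus strand), the receptor that binds TGF-beta first, was at 20.8, 21.5 and 18.4 CPM in WT and at 37.3, 24.6 and 24.5 CPM in DTC. DTEC libraries held 21.6, 24.1 and 24.2 CPM and KO libraries 22.8, 23.1 and 22.1 CPM. All DTC, DTEC and KO libraries were above all WT libraries. TGFBR2 rose 1.42-fold at 7 days (log2 0.51, SE 0.145, adjusted p = 0.0064), or 0.317 on the log2 scale without the first DTC library (adjusted p = 0.0101). The log2 difference from WT was 0.20 in DTEC (95% interval -0.11 to 0.52, adjusted p = 0.257) and 0.16 in KO (-0.15 to 0.48, adjusted p = 0.629), and neither passed. The DTEC difference passed with library totals alone (0.373, adjusted p = 0.0437) and without the first WT and DTC libraries together (0.247, adjusted p = 0.0496). DTEC was below DTC by less than the test could call (log2 -0.31, 95% interval -0.62 to 0.00, adjusted p = 0.0877), and passed in 4 of the 14 other ways of processing, namely with library totals alone (-0.492, adjusted p = 0.0102), with the upper quartile (-0.475, adjusted p = 0.00997) and without DTC library 2 (-0.449, adjusted p = 0.0254) or 3 (-0.437, adjusted p = 0.0367). Per length, the ratio of TGFBR1 to TGFBR2 was 3.43 ± 0.370 (SD, n = 3) for WT, 4.21 ± 0.227 for DTC (exact permutation p = 0.1), 2.48 ± 0.660 for DTEC (exact permutation p = 0.2) and 3.32 ± 0.231 for KO (exact permutation p = 0.7).

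**Figure D3:**
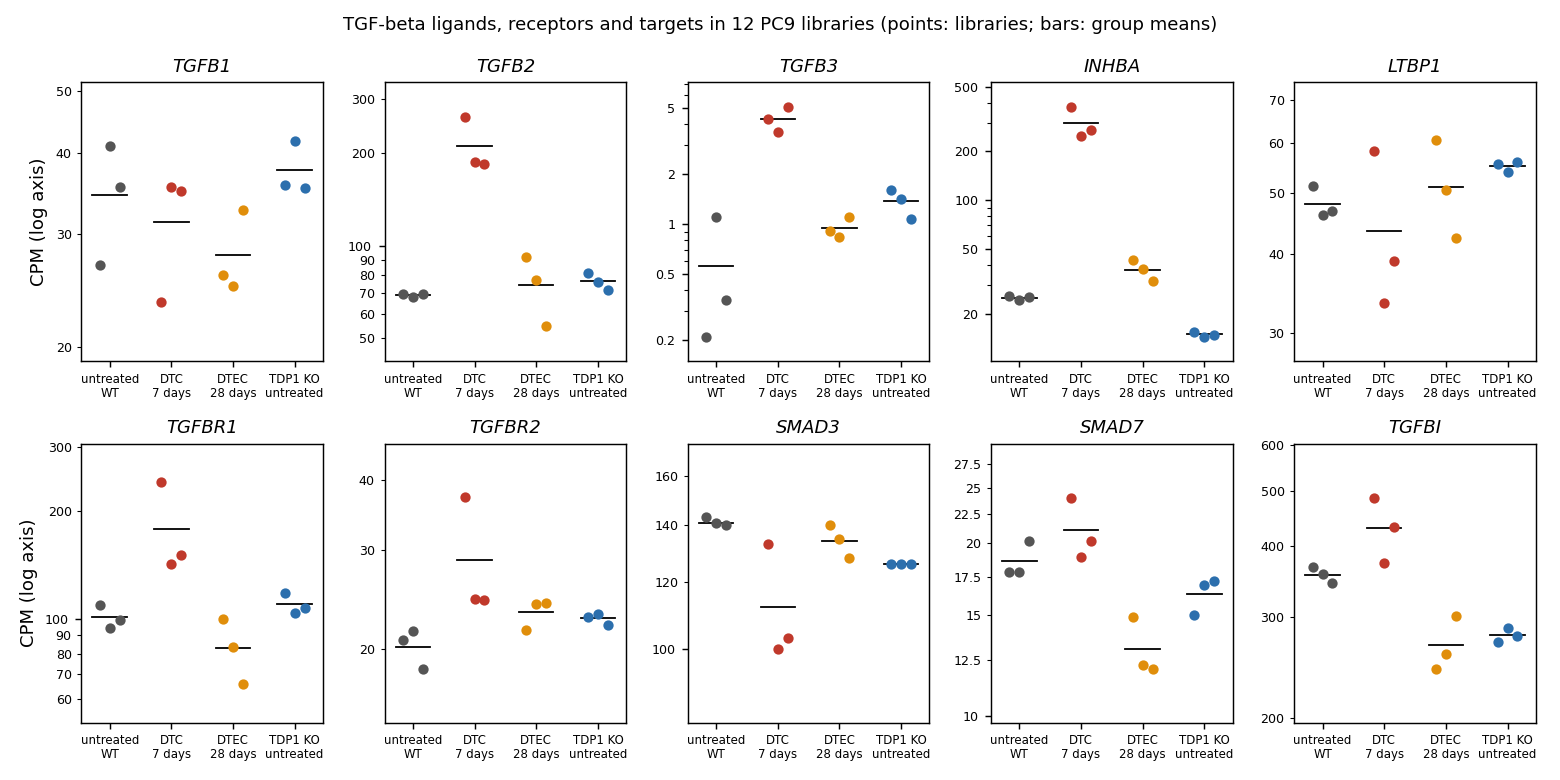
Level of each gene in CPM (vertical log axis, with its own range in each panel) in the 12 libraries, with points for libraries and bars for group means. For INHBA, TGFB2, TGFB3 and TGFBR1 the 3 DTC points lie above all others, and for INHBA the 3 KO points (14.4 to 15.4 CPM) lie below all others.

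SMAD3 (ENSG00000166949, chromosome 15, 67063763 to 67195195, plus strand), the transcription factor that carries the signal to the genome, was at 143, 141 and 140 CPM in WT and at 133, 100 and 103 CPM in DTC. DTEC libraries held 140, 135 and 128 CPM, and the KO libraries were all at 126 CPM. Every DTC and KO library was below every WT library. SMAD3 fell by 0.33 on the log2 scale at 7 days (SE 0.106, adjusted p = 0.012). The call was lost in 6 of 14 other ways of processing, and the difference was 0.021 with library totals alone and -0.199 without the second DTC library (adjusted p = 0.128). SMAD3 was higher in DTEC than in DTC (log2 0.26, SE 0.106, adjusted p = 0.0482) although their libraries overlapped, and only 3 of the 14 other ways kept that call. Against WT the log2 difference was -0.07 in DTEC (95% interval -0.30 to 0.15, adjusted p = 0.589) and -0.16 in KO (-0.39 to 0.06, adjusted p = 0.474).

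SMAD7 (ENSG00000101665, chromosome 18, 48919853 to 48952052, minus strand), the inhibitor that TGF-beta itself induces, was at 17.8, 17.8 and 20.2 CPM in WT and at 24.0, 18.9 and 20.2 CPM in DTC. DTEC libraries held 14.9, 12.3 and 12.1 CPM and KO libraries 15.0, 16.9 and 17.2 CPM. The DTEC libraries were the lowest 3, below all WT and all DTC libraries. SMAD7 was at 70.3% of WT in DTEC (log2 -0.51, SE 0.124, adjusted p = 0.00335) and at 62.2% of DTC (log2 -0.68, SE 0.124, adjusted p = 0.000329), and all 14 other ways of processing kept both calls. Its difference from WT was 0.18 in DTC (95% interval -0.08 to 0.44, adjusted p = 0.213), which passed with library totals alone (0.532, adjusted p = 0.00139) and with the upper quartile (0.464, adjusted p = 0.00283), and without the second DTC library (0.309, adjusted p = 0.0496). In KO it was -0.19 (-0.45 to 0.07, adjusted p = 0.481). Within a library and per length, the ratio of SMAD7 to SMAD3 was 0.239 ± 0.0195 (SD, n = 3) for WT, 0.342 ± 0.0148 for DTC, 0.176 ± 0.0145 for DTEC and 0.235 ± 0.0174 for KO. The DTC ratios were all above and the DTEC ratios all below WT (exact permutation p = 0.1 for each).

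TGFBI (ENSG00000120708, chromosome 5, 136028895 to 136063818, plus strand), a secreted matrix protein named for its induction by TGF-beta, was at 367, 357 and 344 CPM in WT and at 486, 373 and 432 CPM in DTC. DTEC libraries held 244, 259 and 302 CPM and KO libraries 272, 287 and 278 CPM. All DTC libraries were above and all DTEC and KO libraries below WT. TGFBI rose 1.21-fold at 7 days (log2 0.28, SE 0.111, adjusted p = 0.0393), a call lost in 8 of 14 other ways of processing, with adjusted p up to 0.112. It was at 75.4% of WT at 28 days (log2 -0.41, SE 0.111, adjusted p = 0.00664), a call lost with library totals alone (-0.24, adjusted p = 0.0803) and without the first DTEC library (-0.322, adjusted p = 0.0577). The fall from DTC to DTEC, to 62.3%, was kept in all 14 (log2 -0.68, SE 0.111, adjusted p = 0.000134). In KO the log2 difference was -0.35 (95% interval -0.59 to -0.11, adjusted p = 0.103), which passed when WT and KO were fitted alone (-0.325, adjusted p = 0.000813).

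Compared per kilobase of exon, with all annotated exons of a gene merged, TGFBI had the highest level of the 10 genes in every group, at 45.6 CPM per kb for WT, 55.1 for DTC, 34.3 for DTEC and 35.8 for KO. In WT it was followed by SMAD3 (15.5), TGFBR1 (14.7), TGFB2 (13.4), TGFB1 (10.6), LTBP1 (6.55), TGFBR2 (4.30), SMAD7 (3.70), INHBA (3.02) and TGFB3 (0.113). Neighbours in that order did not overlap between libraries except SMAD3 with TGFBR1 and TGFBR2 with SMAD7. Merged exons can be longer than the transcripts present, so the order of close neighbours can depend on the length used. In DTC the order was TGFBI (55.1), TGFB2 (41.0), INHBA (36.1), TGFBR1 (26.0), SMAD3 (12.3), TGFB1 (9.68), TGFBR2 (6.13), LTBP1 (5.93), SMAD7 (4.18) and TGFB3 (0.880). INHBA thus stood at rank 9 in WT and at rank 3 in DTC, where TGFBI, TGFB2, INHBA and TGFBR1 overlapped each with the next. In DTEC INHBA was at rank 8 (4.50 CPM per kb) and in KO at rank 9 (1.79). In bulk RNA, more cells with a transcript and more transcript in each cell cannot be told apart.

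The pathway around these genes was described by 6 lists drawn up from general knowledge, with earlier results of these libraries known. Their counts in DTC stand beside the 34.0% of all genes that rose and the 33.3% that fell. Of 22 further targets of TGF-beta, 19 had enough counts to be tested, and 16 of them rose, 2 fell and 1 did not pass in DTC, with a median log2 fold change of 2.27 against 0.06 for all genes. FN1, which encodes the matrix protein fibronectin, was at 88.5, 97.9 and 99.4 CPM in WT and at 13159, 6336 and 7084 CPM in DTC (log2 6.54, SE 0.261, adjusted p = 2.41e-10). CCN2, which encodes connective tissue growth factor, was at 0.328, 0.00 and 0.202 CPM in WT and at 7.19, 7.17 and 7.68 CPM in DTC (log2 5.30, SE 0.471, adjusted p = 2.4e-07). POSTN, the gene of the matrix protein periostin, had 0 counts in WT and 39, 30 and 19 counts in DTC, at least 9.94-fold higher when set against 3 counts per library. The targets that fell were LOX (log2 -1.34) and ADAM19 (-0.66), a collagen cross-linking enzyme and a protease, named after their values were seen, and ADAM19 no longer passed with library totals alone (-0.304, adjusted p = 0.0977). Many of these targets also respond to other signals, and the list was chosen with results of these libraries known.

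The 12 genes of the latency and activation list all passed the count filter, and in DTC 7 of them rose, 4 fell and 1 did not pass (median 1.59). The integrin subunits ITGAV (log2 1.88), ITGB6 (1.94) and ITGB8 (1.96), which bind and activate latent TGF-beta, all rose, as did THBS1 (1.31), the gene of thrombospondin-1. The 4 genes that fell were NRROS, an anchor of latent TGF-beta (log2 -1.77, SE 0.267, adjusted p = 3.89e-05), LTBP3 (-0.72), a relative of LTBP1, FURIN (-0.35), the protease that cleaves the TGF-beta precursor, and LTBP2 (-0.32). With library totals alone FURIN (0.000283) and LTBP2 (0.032) had the opposite sign, and LTBP3 no longer passed (-0.368, adjusted p = 0.0594). The genes of this list other than FBN1, LRRC32 and FBN2 were singled out after their values were seen. FBN1, which encodes the matrix protein fibrillin-1, was at 1.97, 1.65 and 1.73 CPM in WT and at 38.4, 21.6 and 21.3 CPM in DTC (log2 3.92, SE 0.262, adjusted p = 1.61e-08). LRRC32, a cell-surface anchor of latent TGF-beta, had at most 1 count in a WT library and 14, 28 and 34 counts in DTC (adjusted p = 7.27e-05). FBN2 had at most 2 counts in a WT library and 20, 22 and 15 in DTC (adjusted p = 0.000568). Both were at or under 3 counts in WT, so no fold is given.

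Among the 5 tested of 11 other ligand genes, INHA and GDF11 rose and GDF1 fell in DTC, with a median of 0.43. INHA, the inhibin alpha subunit, which turns an activin subunit into the antagonist inhibin, was at 0.328, 0.607 and 0.404 CPM in WT and at 9.29, 11.3 and 13.7 CPM in DTC (log2 4.68, SE 0.300, adjusted p = 8.05e-09). GDF11, a ligand that signals through SMAD2 and SMAD3, rose by 0.43 (SE 0.104, adjusted p = 0.0019), and GDF1 fell by 1.77 (SE 0.367, adjusted p = 0.000657). INHBC, MSTN, GDF3, NODAL, LEFTY1 and LEFTY2 were not tested, with at most 14 counts in any library.

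Of 8 other receptor genes, 1 rose and 5 fell in DTC and 2 did not pass, with a median of -0.51. The share that passed, 6 of 8, is close to the 67.3% of all genes, as are those of the SMADs and cofactors and of the inhibitors given next. TGFBR3, the co-receptor betaglycan, was at 48.7, 48.4 and 50.8 CPM in WT and at 22.4, 13.7 and 15.7 CPM in DTC (log2 -1.51, SE 0.144, adjusted p = 3.96e-07). The type II activin receptor gene ACVR2B fell from 13.0, 9.81 and 11.9 CPM to 6.45, 3.97 and 3.34 CPM (log2 -1.34, SE 0.208, adjusted p = 5.27e-05). The other type II activin receptor gene, ACVR2A, and the activin type I receptor gene ACVR1B fell by 1.12 and 0.61 on the log2 scale. Both were named after their values were seen. The 2 genes that did not pass were ACVR1 (log2 -0.05, adjusted p = 0.745) and ACVR1C (0.16, adjusted p = 0.817). With library totals alone ACVR1B no longer passed (-0.259, adjusted p = 0.0825). ACVRL1, a receptor kinase known from endothelium, had at most 3 counts in a WT library and 17, 12 and 27 in DTC (adjusted p = 0.00163).

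Of 7 SMADs and cofactors, 1 rose, 4 fell and 2 did not pass in DTC (median -0.55). ZFYVE9, which presents SMAD2 and SMAD3 to the receptor, fell by 1.25 (SE 0.171, adjusted p = 1.59e-05), and the coactivator gene CREBBP fell by 0.89 (SE 0.138, adjusted p = 4.88e-05). FOXH1, a DNA-binding partner of SMADs, was at 0.119, 0.202 and 0.0865 CPM in WT and at 0.338, 0.706 and 1.05 CPM in DTC (log2 2.36, SE 0.548, adjusted p = 0.00157). SMAD2 (log2 -0.03, adjusted p = 0.79) and SMAD4 (-0.26, adjusted p = 0.0584) did not pass. Of 14 tested inhibitors, 3 rose, 7 fell and 4 did not pass, with a median of -0.22. FSTL3, which binds and blocks activins, was at 28.5, 34.9 and 33.7 CPM in WT and at 139, 166 and 175 CPM in DTC (log2 2.31, SE 0.123, adjusted p = 1.48e-09). The decoy receptor gene BAMBI rose by 2.04 (SE 0.128, adjusted p = 6.57e-09), and the inhibitory SMAD6 fell by 1.67 (SE 0.239, adjusted p = 2.39e-05).

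**Figure D4:**
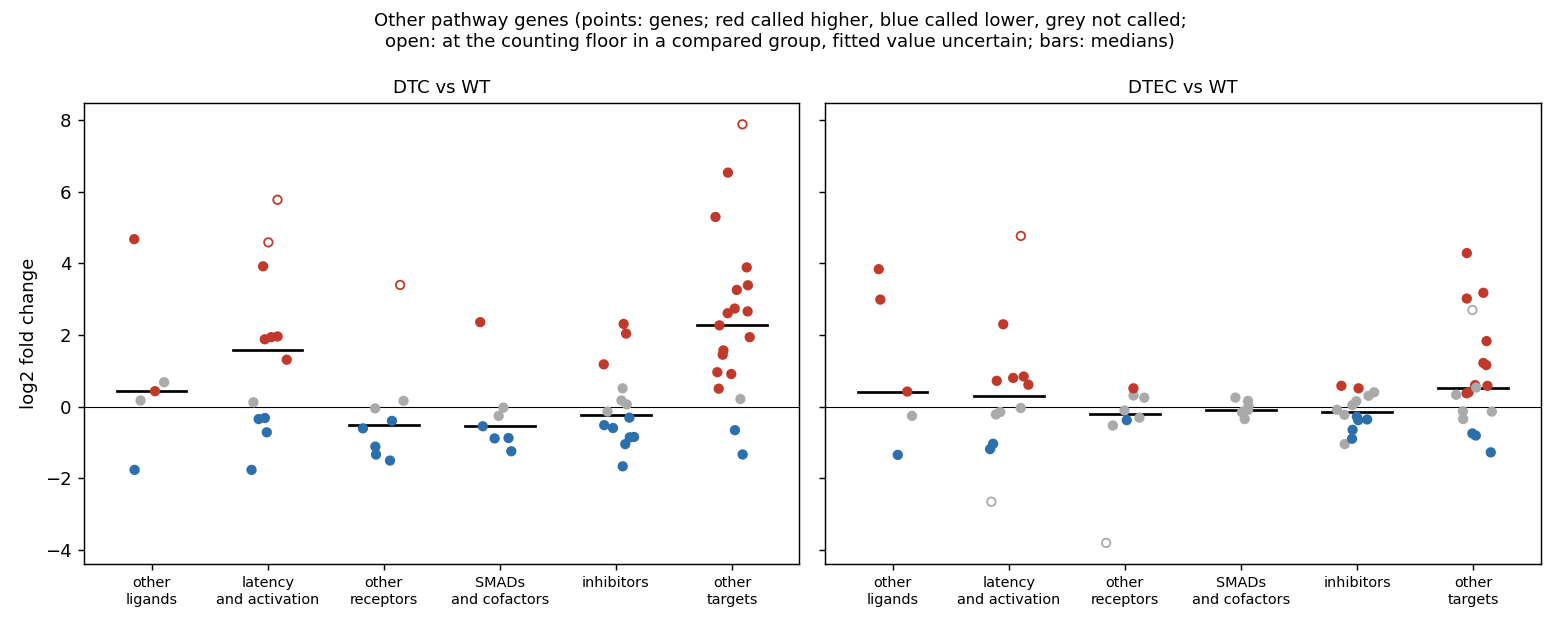
Log2 fold change of the other pathway genes (vertical axis) in DTC and in DTEC, both against WT, by list, with bars for medians. Filled points are genes with counts in both groups, and open points had at most 3 counts in every library of a group, so that their fitted value is uncertain. The median of the other targets is 2.27 in DTC and 0.53 in DTEC.

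At 28 days, when 26.0% of all genes were above WT and 26.3% below, 10 of the 19 targets tested were above WT, 3 were below and 6 did not pass, with a median of 0.53 against 0.02 for all genes, or 0.40 with POSTN at its counting bound. CCN2 (log2 4.29, SE 0.475, adjusted p = 5.35e-06), FN1 (3.18, SE 0.223, adjusted p = 1.17e-07) and CDKN2B (3.02, SE 0.106, adjusted p = 2.02e-10), the gene of a cell cycle inhibitor, had the largest rises by the fitted values. From DTC to DTEC, where 26.6% of all genes were lower and 28.8% higher, 15 of the 19 were lower, 1 was higher and 3 did not pass, with a median of -1.45. FN1 fell to 795, 868 and 920 CPM (log2 -3.36 against DTC, SE 0.224, adjusted p = 5.27e-08). CDKN1A, another cell cycle inhibitor gene, went from 57.2, 56.7 and 61.0 CPM in DTC to 6.45, 5.42 and 5.19 CPM in DTEC (log2 -3.36, SE 0.118, adjusted p = 9.53e-11). It had been at 8.78, 10.1 and 9.83 CPM in WT, so it ended below that level (log2 -0.75, adjusted p = 8.61e-05).

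Of the latency and activation list, 6 genes were above WT in DTEC, 2 below and 4 did not pass (median 0.28, or 0.33 with genes at the floor at their bound). FBN1 was at 11.2, 8.44 and 6.78 CPM in DTEC (log2 2.30, SE 0.259, adjusted p = 6.43e-06), and LRRC32 had 11, 11 and 14 counts (adjusted p = 0.00107). NRROS was lower than in WT there too (log2 -1.19, SE 0.257, adjusted p = 0.00136). Against DTC, 2 of the 12 were higher, 6 lower and 4 did not pass (median -1.07). THBS1 was at 893, 529 and 656 CPM in DTC and at 161, 136 and 112 CPM in DTEC (log2 -2.35, SE 0.172, adjusted p = 8.5e-08), and ITGAV was lower by 2.10 (SE 0.152, adjusted p = 7.28e-08). FBN2 and ACVRL1 had 0 counts in all 3 DTEC libraries, at least 6.10-fold and 5.95-fold lower than DTC when set against 3 counts per library.

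Of the 5 other ligand genes, 3 were above WT in DTEC, 1 was below and 1 did not pass (median 0.42). INHA stood at 4.17, 2.56 and 3.82 CPM in DTEC, above WT (log2 2.99, SE 0.302, adjusted p = 2.01e-06) and below DTC (-1.69, SE 0.241, adjusted p = 4.22e-05). INHBE, a beta subunit gene known from liver, was at 2.56, 1.57 and 0.439 CPM in DTEC and at no more than 0.270 CPM in the other 9 libraries (log2 3.84 against WT, SE 0.783, adjusted p = 0.00091). GDF1 was lower than in WT (log2 -1.35, SE 0.358, adjusted p = 0.00571), and GDF11 was lower than in DTC (-0.69, SE 0.105, adjusted p = 7.34e-05). Against DTC, 2 of the 5 were higher, 2 lower and 1 did not pass (median 0.25).

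Of the 8 other receptor genes, 1 was above and 1 below WT in DTEC and 6 did not pass (median -0.21, or -0.02 with ACVRL1 at its bound). ACVR2B was higher (log2 0.51, SE 0.197, adjusted p = 0.0434) and ACVR2A lower (-0.38, SE 0.133, adjusted p = 0.0271), which did not pass with library totals alone (-0.21, adjusted p = 0.197) or with the upper quartile (-0.265, adjusted p = 0.105). The count of receptor genes called lay between 0 and 2 when single libraries were left out. Against DTC, 4 of the 8 were higher, 1 lower and 3 did not pass (median 0.52), led by ACVR2B (log2 1.85, SE 0.208, adjusted p = 5.08e-06) and TGFBR3 (1.41, SE 0.144, adjusted p = 1.89e-06) among those with counts in both groups.

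Of the 7 SMADs and cofactors, 0 passed against WT in DTEC by edgeR's quasi-likelihood test, 1 had an unadjusted p under 0.05, and DESeq2 called 1 (median -0.09). Against DTC, 5 were higher, 1 lower and 1 did not pass (median 0.51). EP300, a histone acetyltransferase that SMADs recruit, was at 147, 91.4 and 91.7 CPM in DTC and at 246, 232 and 199 CPM in DTEC (log2 1.04, SE 0.161, adjusted p = 9.31e-05), ZFYVE9 was higher by 0.90 (SE 0.171, adjusted p = 0.000505), and FOXH1 was lower by 2.45 (log2 -2.45, SE 0.555, adjusted p = 0.00187). Of the 14 inhibitors, 2 were above WT, 5 below and 7 did not pass (median -0.16), among them the ubiquitin ligase genes NEDD4L (log2 -0.90, SE 0.148, adjusted p = 0.000159) and SMURF1 (-0.65, SE 0.129, adjusted p = 0.00072) and the SMAD repressor gene SKIL (0.58, SE 0.169, adjusted p = 0.00996). Against DTC, 7 were higher, 4 lower and 3 did not pass (median 0.34). FSTL3 was at 27.8, 22.1 and 25.4 CPM in DTEC (log2 -2.67 against DTC, SE 0.125, adjusted p = 1.04e-09), BAMBI was lower by 1.75 (log2 -1.75, SE 0.126, adjusted p = 7.04e-08), and FST, the gene of follistatin, was lower at under 1 CPM in every library (-1.56, SE 0.609, adjusted p = 0.0417).

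In KO, where 4.31% of all genes passed (2.76% higher and 1.55% lower), between 1 and 4 genes of each list passed. Of the 5 other ligand genes, INHA (log2 1.76, SE 0.318, adjusted p = 0.0057) and INHBB (0.50, SE 0.0895, adjusted p = 0.0057) rose, and the other 3 did not pass. INHBB was at 134, 135 and 129 CPM in KO, above all 3 WT libraries, while INHBA was below all 3. Of the 19 targets, 1 rose, 3 fell and 15 did not pass, with a median of 0.16 (0.04 with POSTN at its bound) against -0.01 for all genes. IL11, which encodes a cytokine, fell by 0.89 (SE 0.205, adjusted p = 0.0241), and COL1A1, a collagen chain gene, rose by 0.73 (SE 0.112, adjusted p = 0.00194).

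The co-receptor gene TGFBR3 rose by 0.70 in KO (SE 0.139, adjusted p = 0.0103), and the other 7 of the 8 receptor genes did not pass (median -0.02, or 0.06 with ACVRL1 at its bound). ITGB8 rose by 0.75 (SE 0.196, adjusted p = 0.0473), and the other 11 of the 12 genes of the latency and activation list did not pass (median 0.30, or 0.07 with genes at the floor at their bound). The ITGB8 call was lost whenever 1 library of WT or KO was left out, and with DESeq2's size factors. SMAD2 fell by 0.39 (SE 0.0919, adjusted p = 0.0269) and was the one of the 7 SMADs and cofactors to pass (median 0.01), which it did not when any 1 of those 6 libraries was left out, with library totals alone or with no filter on low counts. NEDD4L fell by 0.87 (SE 0.148, adjusted p = 0.00403), and the other 13 of the 14 inhibitors did not pass (median -0.07).

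The genes whose pattern over the 12 libraries was most like those of the 3 widest-ranging members were named by Pearson's r of log2 CPM among 9800 genes with a mean of at least 10 CPM. The 12 points share libraries and 4 group means, so r is a description. For INHBA they included TUFT1 (r = 0.998) and ANKLE2 (0.995). For TGFB2 they were DDX60L (0.984), LACTB (0.980) and ITGAV (0.980), and for TGFB3 they were TICAM1 (0.955), ABCC10 (0.941) and EPPK1 (0.941). Among the 10 genes themselves, INHBA and TGFB2 had r = 0.924 and TGFB2 and TGFBR1 had r = 0.907 over the 12 libraries. TGFB1 had r between -0.445 and 0.102 with each of the other 9.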

How the data were processed

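RNA was measured in 12 PC9 libraries, 3 for each of 4 groups taken from the labels. Per the labels, libraries were made with a stranded mRNA kit and read as pairs in 1 batch. The authors deposited expected counts, estimated reads per gene without scaling to depth. The submitters' processing notes name RSEM 1.3.1, Bowtie2 2.5.2, DESeq2 1.40.2 and GRCh38 without saying which made the table, and the annotation release is not given in the sources used here. Coordinates, strands and exon lengths, the last with all annotated exons of a gene merged, are those of the same identifiers in GENCODE 29 (GRCh38), which held 58261 of the 62754 identifiers. A symbol was found for 62700.

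Values were rounded to whole counts and fitted in R 4.3.3 with edgeR 4.0.16: filterByExpr (17115 genes, at least 99.891% of each library's counts), TMM scaling, 1 mean per group over all 12 libraries, robust quasi-likelihood F tests and Benjamini-Hochberg adjustment, called at an adjusted p under 0.05. The biological coefficient of variation was 14.6%. Fold changes are on the log2 scale with their standard error (SE) and 95% interval. CPM uses TMM-scaled totals. Log2 CPM for correlations used a prior count of 2. Floors of 3 counts and bounds cover counting error only. Shares and ratios were compared by two-sided exact permutation tests. The fit was also run on simulated data in which few genes changed, so that run cannot test the scaling of these libraries. The 10 genes, the gene lists and the markers were chosen with earlier results of these data known. Named from each list were the 3 called genes that moved most in each comparison, and for the 3 members of widest range the 3 genes of highest Pearson r. A gene that these rules name is not reported here. The alternatives were DESeq2 1.42.0 size factors, library totals, the upper quartile, no filter, the compared groups alone, the DESeq2 Wald test, a replicate block, each library left out and, chosen after seeing the data, the first WT and DTC libraries left out together.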

Additional observations from a re-analysis of the deposited data

Results flagged for a closer look

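For 7 of the 10 genes the difference from WT at 28 days was unlike that at 7 days, by edgeR's test of DTEC against DTC. Of all genes tested, 55.4% differed in that test, so 7 of 10 is not far from the background. On the log2 scale the 28-day value minus the 7-day value was -3.00 for INHBA, -2.17 for TGFB3, -1.50 for TGFB2, -1.10 for TGFBR1, -0.68 for SMAD7, -0.68 for TGFBI and 0.26 for SMAD3. The SMAD3 difference had overlapping libraries and was called in 3 of 14 other ways of processing. The other 6 differences were called in all 14.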

How the results depend on the processing

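The rise of INHBA, TGFB2, TGFB3, TGFBR1 and TGFBR2 in DTC, of INHBA in DTEC, and the fall of SMAD7 in DTEC against WT kept their direction and call in all 14 alternatives. With library totals alone, log2 differences from WT turned sign for TGFB1 (0.221), SMAD3 (0.021) and LTBP1 (0.213) in DTC and SMAD3 (0.0963) in DTEC, and with the upper quartile for TGFB1 (0.16) and LTBP1 (0.141) in DTC and SMAD3 (0.0423) in DTEC. Leaving out 1 library turned the sign of TGFB1 in DTC (0.0307 without WT replicate 2, 0.073 without DTC replicate 1), LTBP1 in DTC (0.078 without DTC replicate 2), TGFB2 (-0.0505) and LTBP1 (-0.0292) in DTEC without DTEC replicate 1, and TGFB1 in KO (-0.00837 without WT replicate 1). This last difference was -0.0125 without the first WT and DTC libraries together, an alternative chosen after seeing the data, under which 5 members were called in DTEC in place of 3. In KO, where 1 member was called, 2 were called with no filter, 3 with the 2 groups fitted alone, 2 with DESeq2 and 0 to 2 with single libraries left out. Of all genes in KO, 738 were called, 1147 with no filter, 2656 with the groups alone, 1146 with DESeq2 and 321 to 426 with single libraries left out. With single libraries left out, these values ran from -0.255 to 0.073 (TGFB1) and -0.372 to 0.078 (LTBP1) in DTC, from -0.0505 to 0.286 (TGFB2) and -0.0292 to 0.204 (LTBP1) in DTEC, and from -0.00837 to 0.292 (TGFB1) in KO. The causes were not tested. Deviations of same-numbered cultures from their group means correlated between -0.013 and 0.179. In DTC, DTEC, DTEC against DTC, and KO, 4, 3, 4 and 6 of 6 libraries correlated best with their own number. Whether same-numbered cultures shared more than a number was not tested. With replicate number as a block, 7, 3, 7 and 1 members were called in DTC, DTEC, DTEC against DTC, and KO, as without it, and 887 genes in KO. Depth limits TGFB3 most, at 7 to 33 counts in WT.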
